A study of Mus musculus with 5 samples.

Results

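The let-7 family and miR-98 are represented on the array by the spots of 9 guide strands: mmu-let-7a-5p, mmu-let-7b-5p, mmu-let-7c-5p, mmu-let-7d-5p, mmu-let-7e-5p, mmu-let-7f-5p, mmu-let-7g-5p, mmu-let-7i-5p and mmu-miR-98-5p, written without the species prefix mmu hereafter where the meaning is plain. They were taken by name, as the 5p arms of these miRNAs, from 1265 mouse miRNA spots, and all 9 were found once on each array. Total RNA of 5 mouse cultures, labelled with Hy5, was hybridised to 1 array each. The embryoid body (EB) came from V6.5 cells kept floating without leukaemia inhibitory factor (LIF) for 1 week. The other 4 cultures were embryonic stem (ES) cells grown with LIF: PKM1 KI, where PKM1 is a form of the enzyme pyruvate kinase and KI, usually short for knock-in, is not spelt out; 2TS22c; ZHBTc4; and V6.5, titled wild type. 2TS22c and ZHBTc4 are known as lines in which Sox2 and Oct3/4 can be switched off with a drug; the labels used here give no drug, no feeder cells and no number of clones or cultures. With 1 array per culture, a difference between 2 arrays has no replicate check and describes those arrays only.

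let-7 is one of the first miRNAs described. Its guide strand is loaded into an Argonaute protein and pairs, mainly through its seed, with messages of growth and pluripotency genes such as Lin28, Hmga2 and Myc, which it represses. In ES cells the primary let-7 transcripts are made, but the RNA-binding proteins Lin28a and Lin28b block their maturation, so that mature let-7 is scarce until the cells differentiate. The miR-290 cluster dominates in mouse ES cells and is known to act against let-7 on self-renewal.

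The mature sequences, from RefSeq's GRCm38.p6 annotation, which held all 9, show why the 9 are treated as one family and how alike they are. The seed (bases 2 to 8) is in capitals.
let-7a-5p: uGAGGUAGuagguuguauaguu
let-7b-5p: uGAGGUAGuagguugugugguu
let-7c-5p: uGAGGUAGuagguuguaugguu
let-7d-5p: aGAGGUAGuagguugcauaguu
let-7e-5p: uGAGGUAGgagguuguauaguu
let-7f-5p: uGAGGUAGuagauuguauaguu
let-7g-5p: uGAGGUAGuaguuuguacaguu
let-7i-5p: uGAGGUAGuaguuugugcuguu
miR-98-5p: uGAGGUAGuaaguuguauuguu
All 9 have the seed gagguag and are 22 bases long. Counted from 1 at the 5′ end with let-7a-5p first, let-7c-5p differs from it by A19G, let-7e-5p by U9G and let-7f-5p by G12A. let-7b-5p differs by A17G and A19G, let-7d-5p by U1A and U16C, let-7g-5p by G12U and U18C, and miR-98-5p by G11A and A19U. let-7i-5p is the farthest, with G12U, A17G, U18C and A19U. Over all pairs the members differ by 1 to 6 bases. The probe sequences were not used here, and signal shared between probes of such similar miRNAs cannot be separated, so the 9 spots are not 9 independent readings.

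The 9 guide strands come from 12 hairpins on 7 chromosomes in GRCm38.p6. let-7a-5p (chr13:48538239-48538260, minus strand), let-7f-5p (chr13:48537889-48537910) and let-7d-5p (chr13:48536078-48536099) lie side by side. let-7c-5p (chr15:85706616-85706637, plus strand) and let-7b-5p (chr15:85707325-85707346) lie within the long non-coding RNA gene Lncppara. A further copy of let-7c-5p (chr16:77599672-77599693) lies beside the miR-99a hairpin, let-7e-5p (chr17:17830366-17830387) lies beside miR-99b and miR-125a within the span of Spaca6, and the let-7a-2 hairpin (chr9:41536716-41536811) lies near miR-100 within Mir100hg. The further copy of let-7f-5p (chrX:151912353-151912374) and miR-98-5p (chrX:151913229-151913250) lie within the span of Huwe1, and let-7g-5p (chr9:106178846-106178867) within that of Wdr82. let-7i-5p (chr10:122985698-122985719, minus strand) has no other miRNA within 10 kb. The table used gives gene spans without exons, so exonic and intronic hairpins are not separated here. A spot of let-7a-5p, let-7c-5p or let-7f-5p cannot tell its 2 hairpins apart.

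All 9 spots were dim on all 5 arrays. A raw intensity is the median brightness of a spot's pixels, with nothing taken off. The members lay between 40 and 73 on the EB array, 56 and 82 on PKM1 KI ES, 50 and 70 on 2TS22c ES, 46 and 66 on ZHBTc4 ES, and 51 and 109 on V6.5 ES. The 1664 spots named blank averaged 33.2 ± 3.57 on the EB, 48.2 ± 5.65 on PKM1 KI ES, 48.1 ± 5.90 on 2TS22c ES, 49.7 ± 5.91 on ZHBTc4 ES and 48.5 ± 5.68 on V6.5 ES (SD between spots of 1 array). For scale, miR-294-3p, a leading miRNA of the miR-290 cluster, read 1627 on the EB and 2745 on V6.5 ES. The order of brightness of different probes gives no order of abundance. The scanner files list a detector gain of 43 for the EB, 46 for 2TS22c ES and 47 elsewhere, so raw values are read against the blank spots of the same array. ZHBTc4 ES alone lay on the second of 2 chips, so chip and line cannot be told apart for it.

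A spot brighter than its array's blank mean by over 2 blank SDs was counted as detected. That limit was passed by 8 of the 9 members on the EB, 7 on PKM1 KI ES, 4 on 2TS22c ES, 2 on ZHBTc4 ES and 8 on V6.5 ES. Of all 1265 miRNAs, 59.3%, 60.3%, 40.1%, 41.1% and 59.6% passed it on the same arrays, so the count fell with that of all miRNAs on 2TS22c ES and ZHBTc4 ES. The 24 spots named negative control were brighter on average than the blank spots on all 5 arrays, at 41.1 ± 4.59 on the EB, 60.8 ± 6.49 on PKM1 KI ES, 51.6 ± 6.49 on 2TS22c ES, 56.6 ± 5.95 on ZHBTc4 ES and 57.2 ± 7.51 on V6.5 ES. The mean plus 2 SD of these spots was passed by 6 members on the EB, 2 on PKM1 KI ES, 1 on 2TS22c ES, 0 on ZHBTc4 ES and 6 on V6.5 ES, against 39.2%, 36.9%, 30.6%, 29% and 37.3% of all miRNAs. On this stricter limit the family was seen mainly on the EB and V6.5 ES arrays. Brightness around the spots was also high: with the local background of each spot taken off, 2, 1, 0, 0 and 3 members passed a limit set in the same way. The share of all miRNAs passing that limit is not given here, so these counts cannot be set against the whole array.

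**Figure D1:**
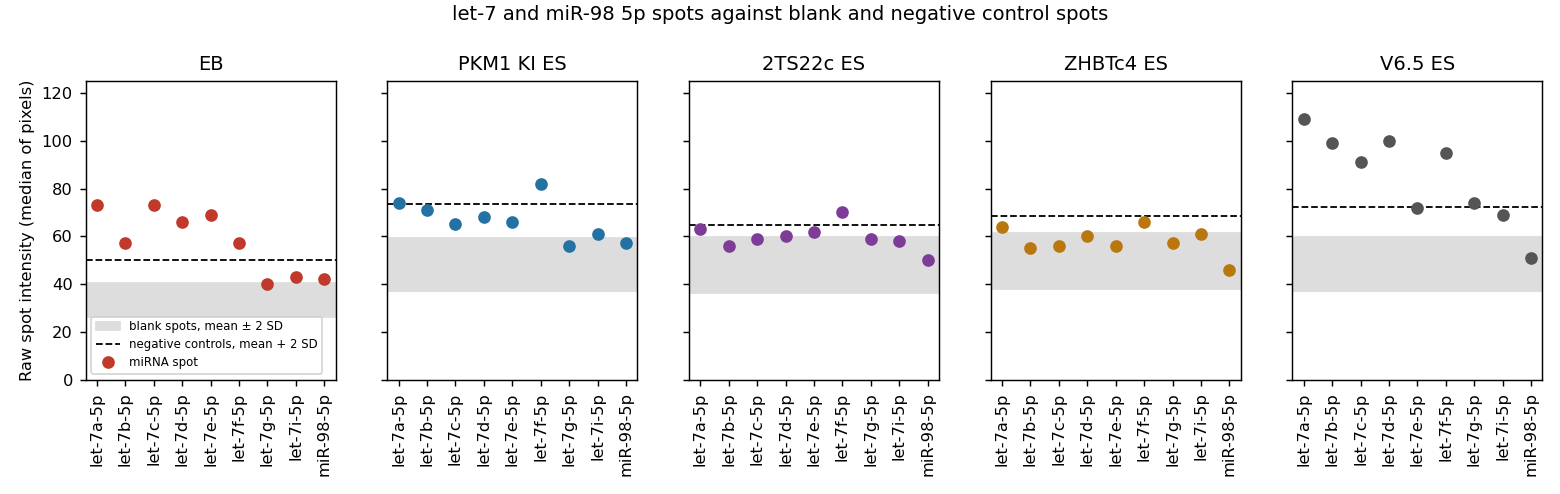
Raw intensity of the 9 spots (points) on each of the 5 arrays, with the mean ± 2 SD of the blank spots (grey band) and the mean + 2 SD of the negative control spots (dashed line). On the EB and V6.5 ES arrays 6 spots lie above the dashed line, while on ZHBTc4 ES none does.

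mmu-let-7a-5p read 73 on the EB, 74 on PKM1 KI ES, 63 on 2TS22c ES, 64 on ZHBTc4 ES and 109 on V6.5 ES. It was detected on all 5 arrays. Above the mean blank it stood at 11.2, 4.57, 2.53, 2.41 and 10.6 blank SDs in that order, and no blank spot reached it on the EB or V6.5 ES, while 16 of 1664 did on 2TS22c ES and 37 on ZHBTc4 ES. It was therefore clear of background on the EB and V6.5 ES and close to it on 2TS22c ES and ZHBTc4 ES. let-7f-5p, the other member detected on all 5 arrays, read 57, 82, 70, 66 and 95 in the same order of arrays. It was above the negative control limit on the EB, PKM1 KI ES and V6.5 ES too, and was the one member above the negative control limit on 2TS22c ES. Its local background was 56, 63, 58, 75 and 98 in that order, brighter than the spot on ZHBTc4 ES and V6.5 ES.

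mmu-let-7b-5p read 57 on the EB, 71 on PKM1 KI ES, 56 on 2TS22c ES, 55 on ZHBTc4 ES and 99 on V6.5 ES. mmu-let-7c-5p read 73, 65, 59, 56 and 91, and mmu-let-7d-5p read 66, 68, 60, 60 and 100, in the same order. These 3 shared a pattern: no blank spot reached them on the EB or on V6.5 ES, 2 to 4 blank spots did on PKM1 KI ES, and 54 to 324 did on 2TS22c ES and ZHBTc4 ES. On PKM1 KI ES, however, 1 to 6 of the 24 negative control spots were as bright or brighter, and none of the 3 passed the negative control limit. let-7e-5p, which carries U9G, read 69 on the EB, 66 on PKM1 KI ES, 62 on 2TS22c ES, 56 on ZHBTc4 ES and 72 on V6.5 ES. It stood 1.06 to 4.13 blank SDs above the mean blank on the 4 ES arrays, and no blank spot reached it on the EB. Of the 9, it was the member with the widest positive difference between the EB and V6.5 ES.

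let-7g-5p, let-7i-5p and miR-98-5p stayed near background on most arrays. let-7g-5p read 40 on the EB, 56 on PKM1 KI ES, 59 on 2TS22c ES, 57 on ZHBTc4 ES and 74 on V6.5 ES, and was detected on V6.5 ES alone, where it also passed the negative control limit. The local background around it on V6.5 ES was 82, brighter than the spot. let-7i-5p read 43, 61, 58, 61 and 69 in the same order and was detected on the EB, PKM1 KI ES and V6.5 ES, never above the negative control limit. On those arrays its local background was 52, 51 and 96, brighter than the spot on the EB and V6.5 ES. miR-98-5p read 42, 57, 50, 46 and 51; it was detected on the EB only, where 29 of 1664 blank spots were as bright or brighter. These 3 spots together added 0.392% of the spike control signal on the EB and 0.415% on V6.5 ES, and the 6 spots of let-7a-5p to let-7f-5p 3.01% and 2.36%.

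To set the arrays side by side despite the gains, each spot's intensity minus the mean blank was divided by the mean net signal of the 16 spots named spike control. This assumes the same spike input on every array, which the labels do not state. Summed over the 9 spots this net signal was 3.40 ± 0.164% of the spike signal on the EB, 1.48 ± 0.151% on PKM1 KI ES, 1.01 ± 0.172% on 2TS22c ES, 0.674 ± 0.163% on ZHBTc4 ES and 2.77 ± 0.146% on V6.5 ES (± is the blank SD carried over 9 spots, which covers spot noise only). By net signal over the blank spots, EB and V6.5 ES therefore formed the high pair. PKM1 KI ES, 2TS22c ES and ZHBTc4 ES were the low arrays. The gaps between the pair and the rest were far wider than the spot noise, which does not cover local background. Between 2TS22c ES and ZHBTc4 ES the gap was about the sum of both errors. Measured over the negative control spots instead, the sums were 2.31%, 0.475%, 0.709%, 0.104% and 2.11%, so PKM1 KI ES and 2TS22c ES changed places. On that measure the EB and V6.5 ES lay close together, with errors of 0.211% and 0.193%. By net signal over the blank spots the EB was the highest array for 5 members and V6.5 ES for 4, and ZHBTc4 ES was the lowest for 8.

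The spike scale does not hold the total of all miRNAs constant. All 1265 spots together gave 37.6 times the spike signal on the EB, 29.0 on PKM1 KI ES, 19.5 on 2TS22c ES, 21.3 on ZHBTc4 ES and 26.0 on V6.5 ES. As a share of that total, the 9 spots held 0.0904%, 0.0511%, 0.0521%, 0.0316% and 0.106%. In this measure the EB was below V6.5 ES, so which of these 2 is higher depends on the scale, while PKM1 KI ES, 2TS22c ES and ZHBTc4 ES were lower on both.

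**Figure D2:**
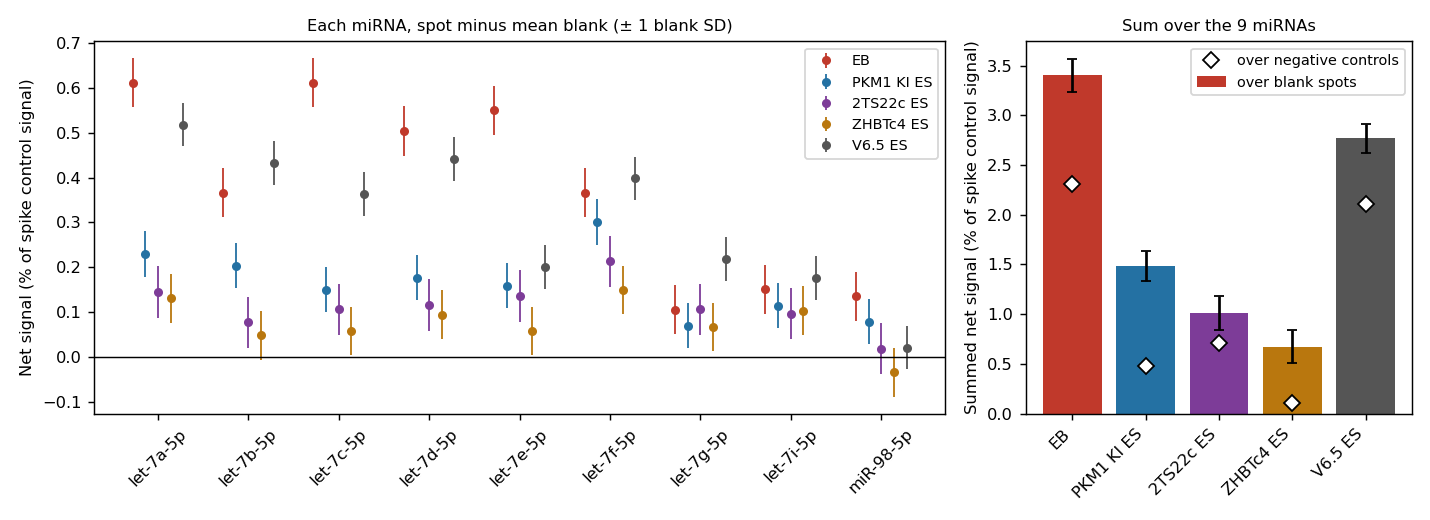
Left, net signal of each of the 9 miRNAs (spot minus mean blank, as a percentage of the mean spike control signal) on the 5 arrays, with ± 1 blank SD. Right, the sum over the 9 spots over blank spots (bars, with the blank SD carried over 9 spots) and over negative control spots (diamonds): the EB at 3.40% and V6.5 ES at 2.77% stand above 1.48%, 1.01% and 0.674%.

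The comparisons that follow use the normalised log2 signal (background modelled with limma's normexp, an offset of 50, quantile normalization over all 5 arrays). The offset pulls folds of dim spots towards 1. The error given is the SD expected for a difference between 2 arrays from repeat spots: 12 control probes with 8 spots each varied with an SD of 0.08 on the log2 scale on the EB, 0.11 on PKM1 KI ES, 0.13 on 2TS22c ES, 0.15 on ZHBTc4 ES and 0.15 on V6.5 ES. It leaves out any spread between cultures. The 4 comparisons with V6.5 ES share that array.

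The first comparison, of the EB and V6.5 ES, asks whether the family differs after a week of differentiation, the step at which it is known to accumulate. On the normalised log2 scale described above no member differed by 2-fold. Among the 850 miRNAs detected on either array 0.118% were higher by that much and 0.235% lower. Other scales gave wider differences. In the authors' deposited table let-7i-5p differed by -1.01. As net signal over spike controls let-7e-5p had 0.550% on the EB and 0.201% on V6.5 ES, and let-7g-5p 0.105% and 0.218%. let-7e-5p was 0.25 ± 0.17 higher on the log2 scale, at 6.58 on the EB and 6.33 on V6.5 ES, and let-7c-5p 0.08 higher (-0.06 with local background taken off). let-7b-5p had a difference of -0.22, let-7f-5p of -0.18, let-7a-5p of -0.12, let-7d-5p of -0.11 and let-7i-5p of -0.09. let-7g-5p, below the limit on the EB, was at least 1.16-fold lower there, but its difference turned to 0.17 with local background taken off. miR-98-5p, undetected in V6.5 ES, was higher on the EB by at least 1.02-fold, but its difference was -0.14 in the authors' deposited table. In all, 3 members were above and 6 below V6.5 ES, and the median difference was -0.11, beside 0.01 for all miRNAs, of which 51.2% were above and 47.1% below. With spike scaling 5 were above and 4 below, with a median of 0.11 beside a shift of 0.20 for all miRNAs. On the normalised log2 scale described above each of the 9 differences was within 2 repeat-spot SDs of 0.

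Against all 4 ES arrays, the one contrast with replicate spread, limma (eBayes, Benjamini-Hochberg adjusted over 959 miRNAs detected on any array) called no member and no other miRNA. At an unadjusted p under 0.05, 15 of the 959 were higher and 9 lower on the EB (2.5%), and none of these was a member. let-7c-5p had the largest difference among the members, 0.33 (SE 0.18, limma adjusted p = 0.99), with 6.62 on the EB and a mean of 6.29 on the ES arrays. let-7e-5p followed with 0.31 (SE 0.13, limma adjusted p = 0.99). The spread includes differences between lines, and the single EB is assumed to vary as the ES arrays do. let-7c-5p, let-7e-5p and miR-98-5p lay above all 4 ES arrays and no member lay below all 4, where 18.6% and 16.7% of the 959 miRNAs did. miR-98-5p was detected on the EB alone, so the limit favours that direction for it. The number of arrays limits this test.

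The comparison of PKM1 KI ES and V6.5 ES asks how the family stands in the line labelled PKM1 KI. All 8 members detected on either array were below V6.5 ES, as were 46.1% of the 874 miRNAs detected on either, while 51.6% were above. Of these 8, let-7g-5p entered the count through V6.5 ES alone, so the limit favours that direction for it, and the others were detected on both arrays. miR-98-5p, detected on neither, differed by 0.12. let-7a-5p had 6.34 on PKM1 KI ES and 6.75 on V6.5 ES, a difference of -0.40 ± 0.19, the one member over 2 repeat-spot SDs. let-7d-5p differed by -0.37, let-7b-5p and let-7c-5p by -0.33 each, let-7f-5p by -0.14, let-7i-5p by -0.13 and let-7e-5p by -0.09. let-7g-5p fell below the limit on PKM1 KI ES and was at least 1.16-fold lower there. The median was -0.31 beside 0.01 for all miRNAs. On this normalised scale no member passed 2-fold, against 0.229% of miRNAs higher and 0.114% lower. In the authors' deposited table the median was -0.96. With local background taken off, however, 4 of the 8 were above and 4 below V6.5 ES, and the median was -0.0079.

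The remaining ES lines, 2TS22c and ZHBTc4, were each set against V6.5 ES. On 2TS22c ES, 6 of 8 members detected on either array had lower values than V6.5 ES, beside 57.7% of 804 miRNAs (41.5% higher); the median difference was -0.18, beside -0.06 for all miRNAs. let-7a-5p differed by -0.36 ± 0.20 (6.39 on 2TS22c ES and 6.75 on V6.5 ES) and let-7d-5p by -0.33, while let-7e-5p and let-7f-5p differed by 0.04 and 0.03. let-7b-5p, undetected on 2TS22c ES, was at least 1.25-fold lower there, and let-7c-5p, likewise undetected, at least 1.18-fold lower. Of these 8, let-7b-5p, let-7c-5p, let-7g-5p and let-7i-5p entered the count through V6.5 ES alone, which favours a lower value on 2TS22c ES. With spike scaling all 8 were lower, and the median was -0.34 beside -0.20 for all miRNAs.

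On ZHBTc4 ES all 8 had lower values than V6.5 ES (6 of 8 with local background taken off), beside 56.4% of 805 miRNAs lower and 41.9% higher. The median difference was -0.30, beside -0.05. let-7a-5p differed by -0.39 ± 0.21, with 6.35 on ZHBTc4 ES and 6.75 on V6.5 ES. Among the members undetected on ZHBTc4 ES, let-7b-5p was lower there by at least 1.26-fold, let-7c-5p by at least 1.19-fold and let-7d-5p by at least 1.27-fold. Only let-7a-5p and let-7f-5p were detected on both; the other 6 entered the count through V6.5 ES alone, which favours that direction. On this normalised scale no member passed 2-fold in either line. By that much 2.74% of miRNAs were higher and 2.24% lower on 2TS22c ES, and 2.48% higher and 1.86% lower on ZHBTc4 ES. In the authors' deposited table, the members with a value on both arrays had medians of -1.48 on 2TS22c ES (7 members) and -1.65 on ZHBTc4 ES (6 members), beside -0.64 and -0.49 for all miRNAs with both values.

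Between 2TS22c ES and ZHBTc4 ES each member differed by less than 2 repeat-spot SDs. The 4 members detected on either array (let-7a-5p, let-7d-5p, let-7e-5p and let-7f-5p) were all higher on 2TS22c ES, beside 46.3% of 613 miRNAs higher and 49.8% lower, by a median of 0.14 beside 0.00. let-7d-5p and let-7e-5p entered this count through 2TS22c ES alone, which favours that direction. let-7f-5p differed by 0.21 ± 0.19, with 6.62 on 2TS22c ES and 6.41 on ZHBTc4 ES. Over all 4 ES lines, V6.5 ES was the highest for 6 members (let-7a-5p, let-7b-5p, let-7c-5p, let-7d-5p, let-7g-5p and let-7i-5p), where it was for 22.4% of the 959 miRNAs. let-7g-5p was detected on V6.5 ES alone, so the limit favours that direction for it. On V6.5 ES the local background of let-7g-5p (82) and let-7i-5p (96) was brighter than the spots (74 and 69). EB and V6.5 ES were both above the other 3 arrays for let-7a-5p, let-7b-5p, let-7c-5p and let-7d-5p, beside 9.7% of miRNAs.

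**Figure D3:**
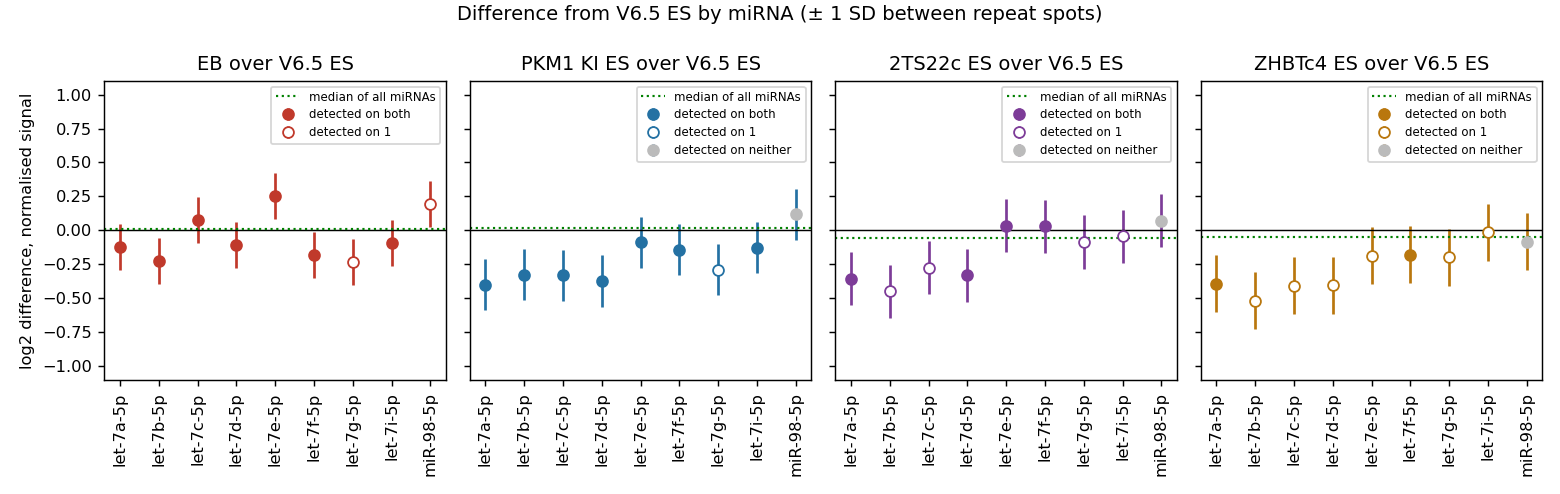
Difference in normalised log2 signal of each of the 9 miRNAs between EB, PKM1 KI ES, 2TS22c ES or ZHBTc4 ES and V6.5 ES, with ± 1 SD between repeat spots. The dotted line is the median of all miRNAs detected on either array. let-7a-5p to let-7d-5p lie below the line in the 3 ES comparisons while in the EB let-7c-5p lies above it and let-7a-5p, let-7b-5p and let-7d-5p below.

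Relatives of the family were mostly at background. let-7k and miR-1961 are the 2 other miRNAs of the RefSeq table with the seed gagguag, and let-7j and miR-202-3p have the seed gagguau.
let-7k: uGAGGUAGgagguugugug
miR-1961: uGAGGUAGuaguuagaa
let-7j: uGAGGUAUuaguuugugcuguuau
miR-202-3p: aGAGGUAUagcgcaugggaaga
let-7k read 55 on the EB, 62 on PKM1 KI ES, 52 on 2TS22c ES, 59 on ZHBTc4 ES and 70 on V6.5 ES. It was detected on the EB, PKM1 KI ES and V6.5 ES and passed the negative control limit on the EB only. miR-1961 and miR-202-3p were detected on no array, and let-7j on 2TS22c ES only, with 60. The passenger strands, the 3p arms that are mostly discarded, had 11 spots, of which 5 were detected on the EB, 5 on PKM1 KI ES, 2 on 2TS22c ES, 3 on ZHBTc4 ES and 3 on V6.5 ES. let-7d-3p was the one detected on all 5 arrays, with 61, 77, 65, 63 and 63 in the same order. The 5 passenger spots detected on PKM1 KI ES or V6.5 ES were all higher on PKM1 KI ES, beside 51.6% of all miRNAs, with a median of 0.12. let-7f-2-3p and let-7i-3p were detected on PKM1 KI ES alone, so the limit favours that direction for them.

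Hairpins of miR-99a, miR-99b, miR-100 and miR-125a lie within 10 kb of a let-7 hairpin. No miR-125b hairpin does, but miR-125b-5p is counted with them below as 1 of 5 neighbours. miR-125b-5p, which itself represses Lin28, read 254 on the EB, 175 on PKM1 KI ES, 61 on 2TS22c ES, 61 on ZHBTc4 ES and 303 on V6.5 ES. It passed the negative control limit on the EB, PKM1 KI ES and V6.5 ES, the same arrays as let-7a-5p. miR-99a-5p, the neighbour of let-7c, read 75 on the EB and 49 on V6.5 ES, and miR-100-5p, the neighbour of let-7a-2, 75 on the EB and 59 on V6.5 ES; both were detected on the EB only. miR-99b-5p and miR-125a-5p, the neighbours of let-7e, read 90 and 130 on the EB and 78 and 122 on V6.5 ES. After normalization all 5 neighbours were higher on the EB than on V6.5 ES, beside 51.2% of all miRNAs, with a median log2 difference of 0.42. miR-99a-5p and miR-100-5p passed the limit through the EB alone; among the neighbours detected on both arrays, miR-99b-5p differed by 0.42, miR-125a-5p by 0.36 and miR-125b-5p by 0.09. The summed net signal of the 5 was 7.03% of the spike signal on the EB, 1.79% on PKM1 KI ES, 0.794% on 2TS22c ES, 0.856% on ZHBTc4 ES and 3.16% on V6.5 ES. Of this, miR-125b-5p gave 3.39%, 1.13%, 0.126%, 0.103% and 2.18% in the same order. The 6 passenger (3p) spots of these neighbours summed to 11.4%, 11.5%, 10.4%, 12.1% and 12.1% in the same order, nearly all of it from miR-125a-3p. The 9 miRNAs listed as reported to repress Lin28 (the miR-125, miR-30, miR-9 and miR-181 families) had 8 members higher and 1 lower on the EB than on V6.5 ES, beside 51.2% and 47.1% of all miRNAs, with a median of 0.35 beside 0.01. Of these, miR-9-5p passed the limit through the EB alone, which favours that direction for it. miR-125a-5p and miR-125b-5p are also among the 5 neighbours, so the 2 counts are not separate.

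Among the cell marker lists, only the fibroblast and feeder list shared the family's 2 highest summed signals, on the EB and V6.5 ES. The 8 spots of fibroblast and feeder cell miRNAs, among them miR-21a-5p and miR-199a-5p, summed to 9.09% of the spike signal on the EB, 5.85% on PKM1 KI ES, 1.89% on 2TS22c ES, 2.01% on ZHBTc4 ES and 7.52% on V6.5 ES. After normalization 5 of these were higher and 3 lower on the EB than on V6.5 ES, 1 of the lower by at least 2-fold. Their median difference was 0.06, beside 0.01 for all miRNAs, of which 51.2% were higher and 47.1% lower. All 8 were detected on the EB, PKM1 KI ES and V6.5 ES and 5 on each of 2TS22c ES and ZHBTc4 ES, where miR-29a-3p and miR-199a-3p/miR-199b-3p were not. Their part in the let-7 values was not tested, and in bulk RNA fewer cells of a type and less RNA per cell cannot be told apart. The 7 ES cell spots of the miR-290 cluster, detected on all 5 arrays, summed to 83.8% on the EB, 85.9% on PKM1 KI ES, 128% on 2TS22c ES, 135% on ZHBTc4 ES and 77.4% on V6.5 ES. They were thus highest on 2TS22c ES and ZHBTc4 ES, where the let-7 sum over the blank spots was lowest. Over the negative control spots the let-7 sum on PKM1 KI ES (0.475%) was below that on 2TS22c ES (0.709%). The sum of the 7 ES cell spots was higher on the EB than on V6.5 ES, but after normalization all 7 were lower on the EB. The median was then -0.41, beside 0.01 for all miRNAs, of which 47.1% were lower. The miR-302 cluster, known from early post-implantation cells, summed to 5.65%, 18.9%, 0.297%, 0.196% and 6.78% in the same order, with 5, 5, 1, 1 and 5 of 5 spots detected. Neural miRNAs summed to 3.43% on the EB, with 4 of 4 spots detected, and to 0.438% to 0.746% on the ES arrays. Of 6 heart and skeletal muscle spots, 2 were detected on the EB, 2 on PKM1 KI ES, 1 on 2TS22c ES, 2 on ZHBTc4 ES and 2 on V6.5 ES. miR-1a-3p, miR-206-3p and miR-499-5p were detected on no array.

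**Figure D4:**
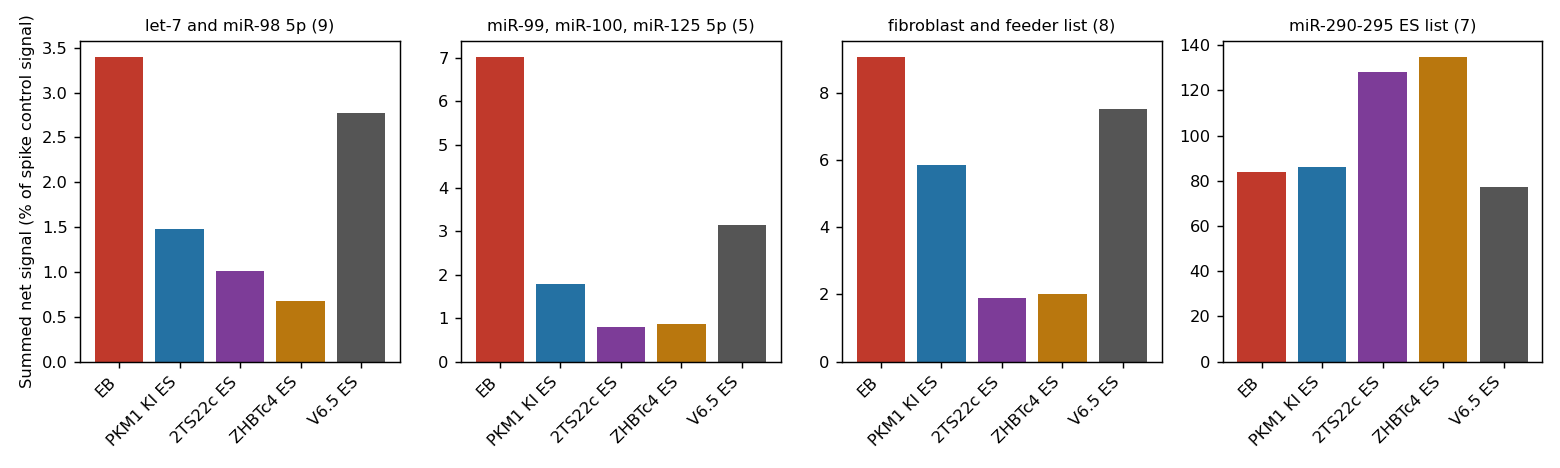
Summed net signal (percentage of the mean spike control signal) of 4 lists on the 5 arrays, with the number of spots in brackets. The let-7 and miR-98 spots, the 5 spots of miR-99, miR-100 and miR-125 5p arms and the fibroblast and feeder list are all highest on the EB (3.40%, 7.03% and 9.09%). They are low on 2TS22c ES and ZHBTc4 ES, while the ES list is highest there.

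Among the 641 other miRNAs detected on at least 3 arrays, the profiles closest to the family's were those of miR-6241, miR-3068-5p, miR-135a-1-3p, miR-376a-3p and miR-669a-3-3p. Their root mean square distances over the 5 arrays, after each profile was centred on its own mean, were 0.051, 0.055, 0.055, 0.057 and 0.066. The members themselves lay 0.066 (let-7d-5p) to 0.111 (miR-98-5p) from their own mean, so these 5 are at least as close to it as any member is. The family profile is shallow, from 0.14 on V6.5 ES to -0.13 on ZHBTc4 ES on the log2 scale, and the likeness is a description of 5 arrays.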

How the data were processed

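Per the labels, total RNA was labelled with Hy5; per the file headers, a version 19 mouse miRNA design was used. The deposited scanner files hold the intensity of each spot, with no background taken off. The authors also deposited processed intensity values, median 25 on each array, whose making is not given in the sources used here. They follow the scanner values in a straight line, but not in the order of dim spots: on V6.5 ES the authors' deposited table gives 44.6 for let-7b-5p and 47.4 for let-7c-5p, where the scanner read 99 and 91.

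Intensities were corrected with limma 3.58.1 (normexp, all spots, offset 50), quantile-normalized over 1265 miRNA spots and tested on the log2 scale in R 4.3.3; the fit was checked on simulated data. Local background was left out of the main correction. The number of arrays limits the precision. Where a miRNA was detected on 1 of 2 arrays, the fold is a bound: the dim side is set to its own value or to its array's lowest detected value, whichever is larger. Net signal over spike controls was added after the values had been seen. All 9 members are named, with lists of passenger strands, relatives, neighbours and markers, and the 5 closest profiles; the members and lists were chosen with earlier results of these data known. miR-1961 was added after the seed search. Of 9 ES cell names, 7 matched the array. In the authors' deposited table a missing value was set to that array's lowest; medians without this fill were added after the values had been seen. On the log2 scale, net signal was floored at 1 blank SD. Alternatives were other background corrections, scalings, detection limits and the authors' values.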

Additional observations from a re-analysis of the deposited data

Results flagged for a closer look

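let-7a-5p was flagged because one ES line stood apart. On the normalised log2 scale it had 6.34 on PKM1 KI ES, 6.39 on 2TS22c ES, 6.35 on ZHBTc4 ES and 6.75 on V6.5 ES, and the gap from V6.5 ES to the nearest other line was 0.889 of the whole range, above Dixon's 95% critical value for 4 samples. Chance flags about 1 in 20 groups, and 9 miRNAs were looked at. The 4 samples are different lines, so a line that differs is enough to set the flag.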

How the results depend on the processing

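All list medians are log2 differences. For EB over V6.5 ES the median of -0.11 became 0.11 with spike scaling and 0.19 as net signal over spike controls, beside shifts of 0.20 and 0.51 for all miRNAs. For PKM1 KI ES over V6.5 ES, -0.31 became -0.0079 with local background, -0.53 with an offset of 16, -0.96 with the authors' table (with or without filled values) and -1.13 as net signal. For 2TS22c ES and ZHBTc4 ES over V6.5 ES, the authors' table gave -1.51 and -1.77 with each missing value set to its array's lowest, and -1.48 and -1.65 over the 7 and 6 members with values on both arrays; net signal gave -1.41 and -1.90. For 2TS22c ES over ZHBTc4 ES, net signal gave 0.41. The other alternatives moved these medians by less than the repeat-spot SD. For single members, EB over V6.5 ES, 6 of 9 differences moved by more than the repeat-spot SD with the authors' table and 4 with spike scaling. let-7g-5p, EB over V6.5 ES, turned to 0.17 with local background, from -0.23; the cause was not tested.

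Members detected with the negative control limit were 2 on PKM1 KI ES, 1 on 2TS22c ES and 0 on ZHBTc4 ES. With the 99th percentile of the blank spots they were 2 on 2TS22c ES and 1 on ZHBTc4 ES. With local background taken off they were 2 on the EB, 1 on PKM1 KI ES, 0 on 2TS22c ES, 0 on ZHBTc4 ES and 3 on V6.5 ES. The shares of all miRNAs under the percentile and local background limits are not given here. limma calls of EB against ES, members and all miRNAs alike, were 0 under every alternative run. These included 0 to 0 when each ES array was left out in turn and 0 with chip as a block, which leaves out ZHBTc4 ES. At an unadjusted limma p under 0.05 at most 2 members passed. Those 2 passed with spike scaling, where 101 of the 959 miRNAs were higher and 0 lower. No paired analysis was possible because each group has 1 array and the labels give no replicate numbers. Signal close to blank limits every member value on 2TS22c ES and ZHBTc4 ES.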
